A study of Mus musculus with 16 samples.

Results

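This account covers the comparison of Armh4 knockout (KO) with wild-type (WT) mouse hearts at 25 months of age, over every gene that could be tested. Its members are 8 of the 16 hearts of the study: the 4 labelled as aged KO (KO_Aged_114, KO_Aged_115, KO_Aged_122 and KO_Aged_125) and the 4 labelled as aged WT (WT_Aged_1, WT_Aged_4, WT_Aged_5 and WT_Aged_12), chosen by genotype and age in the labels. The WT animals were C57BL/6J mice, and the KO animals lacked Armh4 systemically, so no cell type can be singled out as the place where the loss acts. The allele, the number of founder lines, the sex of the animals and the genetic background of the KO line are not given in the sources used here. Mice of both genotypes were kept on normal food with equal hours of light and dark, and no drug or other agent was named. The other 8 hearts came from 8-week-old KO and WT mice, 4 of each, and serve here only to show where the aged comparison differs. RNA was extracted from the dissected heart and sequenced in bulk. Hearts were described as independent replicates, and no animal number is shared by 2 groups. No batch, cage or litter is given in the sources used here, so none can be told apart from genotype.

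Armh4 encodes a membrane protein with an armadillo-like helical domain that has been linked to mTOR complex and STAT3 signalling. Interferons are cytokines that signal through JAK kinases to STAT and IRF transcription factors. These factors bind interferon-stimulated response elements (ISRE) and gamma-activated sites (GAS) in promoters, and they induce guanylate-binding proteins, immunity-related GTPases, antigen presentation genes and antiviral effectors. In the heart such genes are expressed by leucocytes, endothelium, fibroblasts and cardiomyocytes alike.

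At 25 months KO hearts expressed less of many interferon-induced and antigen presentation genes and of some leucocyte genes than WT hearts, and slightly more of a small and mixed set. Of 13373 genes tested 117 changed (0.875% of the genes tested), 95 of them lower in KO (0.71%) and 22 higher (0.165%), at an adjusted p under 0.05 in edgeR's quasi-likelihood test. The falls were large, with a median log2 change of -1.08 and 51 genes past 2-fold. The rises were small, with a median of 0.52 and 2 genes past 2-fold, against a median of 0.00 over all genes tested. The count was 261 by DESeq2, 17 when the 8 aged libraries were fitted alone, 31 without KO_Aged_115, 34 without KO_Aged_122 and 251 without WT_Aged_12. No called gene changed direction in any of these fits. They reuse the hearts by which the genes were chosen, so the unchanged directions are no separate support. The 2 groups did not overlap in 85 of the lower and 20 of the higher genes, against 2.94% and 2.1% of all genes tested (5.04% in either direction). These genes were called by the difference between the same hearts, so little overlap follows from that choice and is no separate support. Of the 95 lower genes 67 belonged to at least 1 of 58 gene lists, and of the 22 higher genes 7 did, against 1282 (9.59%) of all genes tested. The lists were chosen with earlier results of these data known, so these shares support nothing by themselves. Of the 95 lower genes 11 passed the filter on low counts only through the aged WT hearts, where they were high. RNA from a whole heart cannot tell fewer cells of a type from less RNA per cell, and this holds for all results below.

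**Figure D1:**
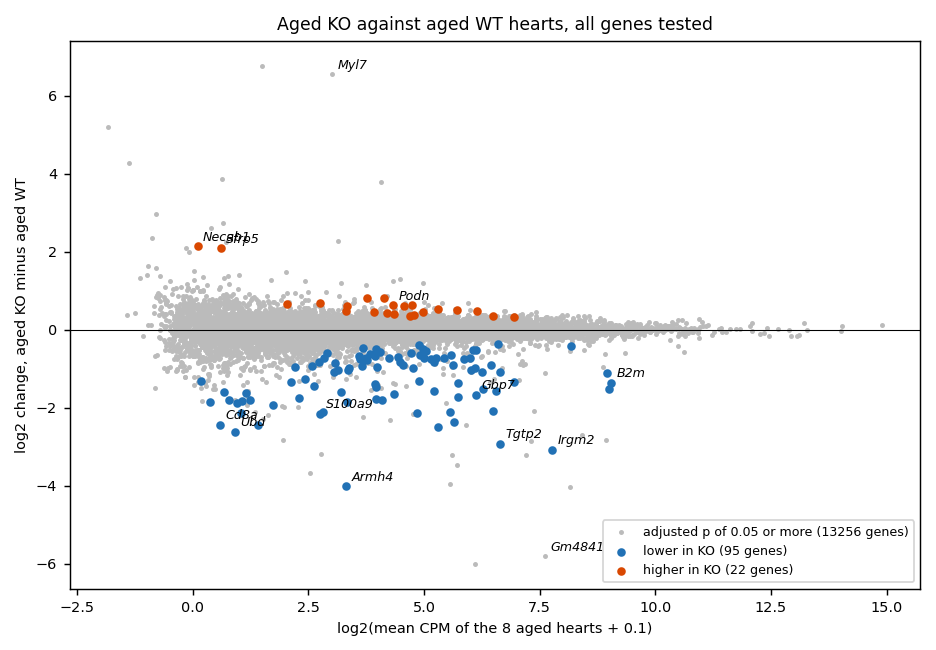
Log2 change of aged KO minus aged WT hearts (vertical axis) against the mean level of the 8 aged hearts (horizontal axis, log2 of CPM + 0.1) for 13373 genes; blue points are the 95 lower genes, orange points the 22 higher genes and grey points the rest. Blue points reach -4.01 (Armh4), orange points reach 2.13 (Necab1), and grey points of larger change (Myl7, Gm4841) did not pass the test.

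Total counts were 11456503 to 13298660 per library over the 16 hearts. Levels are given as CPM, counts scaled to library size, and values of single hearts stand in the order KO_Aged_114, KO_Aged_115, KO_Aged_122 and KO_Aged_125, then WT_Aged_1, WT_Aged_4, WT_Aged_5 and WT_Aged_12. Armh4 (Entrez 67419) stood at 1.07, 0.911, 1.68 and 0.889 CPM in KO hearts and 19.5, 18.3, 15.9 and 20.3 CPM in WT hearts. KO hearts held 11 to 22 counts of it and WT hearts 208 to 254, so every heart matched its label. Nnt, whose partial deletion marks the C57BL/6J substrain, differed by -0.12 ± 0.15 (SE) and did not pass (edgeR adjusted p = 0.838). The 8 aged hearts held 6375 to 8851 counts of Nnt. A count over the whole gene cannot show whether part of it is missing, so the substrain was not checked. Sln, an atrial gene, had 226, 46, 5 and 0 counts in KO hearts and at most 1 in a WT heart, and Myl7, the atrial light chain, had 515, 241, 41 and 4 against 0 to 3. Both genes were highest in KO_Aged_114 and KO_Aged_115. Among the 21 tested members of the atrial list 0 passed, 20 stood above 0 and the median log2 difference was 0.24. Cardiomyocyte genes had 0 of 20 called and a median of 0.04. The Y-chromosome genes Ddx3y, Eif2s3y, Kdm5d and Uty exceeded 100 counts in all 8 aged hearts.

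Promoters of genes in the lower set are shown first, since interferon response motifs can be read in them. Each window runs from 250 bases before to 50 bases after the start of the gene in RefSeq, build GRCm38.p6, which is not the build of the count table. Capitals mark the ISRE core, read as GAAA, any 2 bases and GAAA again, and the GAS core TTCNNNGAA, each searched on both strands. Gbp2, Gbp3, Gbp5, Gbp7, Tgtp2, Irf1 and B2m were lower in KO hearts, and Podn, which was higher, is shown as well.
Gbp2 (chr3:142620413-142620712, + strand): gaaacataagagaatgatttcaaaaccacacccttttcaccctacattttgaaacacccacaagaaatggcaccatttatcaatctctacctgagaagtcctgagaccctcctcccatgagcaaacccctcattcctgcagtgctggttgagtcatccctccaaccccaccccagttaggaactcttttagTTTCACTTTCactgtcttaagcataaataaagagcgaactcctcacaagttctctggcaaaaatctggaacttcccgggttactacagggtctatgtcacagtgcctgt
Gbp3 (chr3:142559794-142560093, + strand): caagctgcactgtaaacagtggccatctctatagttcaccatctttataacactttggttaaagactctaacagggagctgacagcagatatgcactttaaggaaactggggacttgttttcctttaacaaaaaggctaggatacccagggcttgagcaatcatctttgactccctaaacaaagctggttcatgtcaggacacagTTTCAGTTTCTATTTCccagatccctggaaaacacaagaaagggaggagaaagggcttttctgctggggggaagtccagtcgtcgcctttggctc
Gbp5 (chr3:142496684-142496983, + strand): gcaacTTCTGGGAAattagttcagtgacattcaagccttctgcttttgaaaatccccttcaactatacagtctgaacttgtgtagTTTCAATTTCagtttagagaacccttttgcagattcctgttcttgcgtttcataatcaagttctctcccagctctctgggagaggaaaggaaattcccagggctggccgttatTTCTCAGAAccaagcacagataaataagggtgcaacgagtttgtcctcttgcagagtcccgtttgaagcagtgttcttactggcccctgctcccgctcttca
Gbp7 (chr3:142530086-142530385, + strand): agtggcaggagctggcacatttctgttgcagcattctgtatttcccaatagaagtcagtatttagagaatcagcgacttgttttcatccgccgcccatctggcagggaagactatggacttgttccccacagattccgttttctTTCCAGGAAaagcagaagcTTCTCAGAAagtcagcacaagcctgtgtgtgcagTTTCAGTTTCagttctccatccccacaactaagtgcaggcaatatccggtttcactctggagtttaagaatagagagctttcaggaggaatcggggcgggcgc
Tgtp2 (chr11:49064163-49064462, - strand): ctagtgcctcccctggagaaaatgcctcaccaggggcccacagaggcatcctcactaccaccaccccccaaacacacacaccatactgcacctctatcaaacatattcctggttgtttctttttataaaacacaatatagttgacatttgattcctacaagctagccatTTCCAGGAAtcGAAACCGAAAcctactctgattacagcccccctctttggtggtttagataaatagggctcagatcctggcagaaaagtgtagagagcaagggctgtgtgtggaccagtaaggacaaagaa
Irf1 (chr11:53769764-53770063, + strand): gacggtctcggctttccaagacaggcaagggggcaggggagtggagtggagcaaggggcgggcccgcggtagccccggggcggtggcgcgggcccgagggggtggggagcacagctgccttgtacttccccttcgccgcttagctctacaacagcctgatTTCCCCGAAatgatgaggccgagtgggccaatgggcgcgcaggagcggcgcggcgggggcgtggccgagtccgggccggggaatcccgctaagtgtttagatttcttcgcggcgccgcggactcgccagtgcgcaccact
B2m (chr2:122147437-122147736, + strand): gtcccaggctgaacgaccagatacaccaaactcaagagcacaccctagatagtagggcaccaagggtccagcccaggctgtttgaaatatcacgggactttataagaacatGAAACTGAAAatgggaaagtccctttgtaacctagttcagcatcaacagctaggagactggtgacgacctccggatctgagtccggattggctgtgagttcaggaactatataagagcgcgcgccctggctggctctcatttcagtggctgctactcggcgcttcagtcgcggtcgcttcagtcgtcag
Podn (chr4:108030937-108031236, - strand): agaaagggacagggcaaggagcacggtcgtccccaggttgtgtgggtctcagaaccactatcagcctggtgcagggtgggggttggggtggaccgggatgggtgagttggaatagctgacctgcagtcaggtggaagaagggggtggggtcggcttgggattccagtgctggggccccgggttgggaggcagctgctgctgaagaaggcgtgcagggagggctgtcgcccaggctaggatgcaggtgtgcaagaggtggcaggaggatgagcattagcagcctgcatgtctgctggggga
The ISRE core begins 59 bases before the start in Gbp2, 53 in Gbp7, 165 in Gbp5, 70 in Tgtp2 and 139 in B2m. Gbp3 holds 2 overlapping copies, which begin 45 and 39 bases before the start. The GAS core begins 90 bases before the start in Irf1, 81 in Tgtp2, 106 and 87 in Gbp7, and 245 and 52 in Gbp5. In none of these 8 windows did an ISRE core overlap a GAS core, and the Podn window holds neither.

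Over the whole lower set, 69 of 95 genes had a window in the table. The ISRE core stood in 19 of the 69 (27.5%), against 3.9% of the 10631 tested genes with a window and 3.44% of all 32851 windows. The GAS core stood in 13 (18.8%), against 8.18% and 8.3%. Either core stood in 26 of the 69, while all lower genes printed above hold a core, so those windows are not typical of the set. Ifi47, H2-K1, Tap1 and Psmb9 were among the lower genes with neither. Of the 16 higher genes with a window 0 held either core, but 16 windows are too few to set against shares of 3.9% and 8.18%. Some of these genes are recent copies of each other and do not count as separate cases, and a match describes the letters of the window and not binding.

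Guanylate-binding proteins, GTPases that attack the membranes of intracellular pathogens, fell in 7 of 9 tested members. All 9 stood below 0, between -3.47 and -0.91, the median log2 change was -1.67, and 1 member entered the test only through the aged WT hearts. Gbp7 (229900) stood at 31.1, 34.8, 27.6 and 40.3 CPM in KO hearts and 111, 105, 139 and 69.7 CPM in WT hearts. Gbp2 (14469) stood at 32.6, 29.7, 23 and 32.9 CPM in KO hearts and 90.3, 79.1, 79.7 and 54.5 CPM in WT hearts. In both genes every KO heart was below every WT heart, the 4 KO hearts were close together, and WT_Aged_12 was the lowest WT heart. Gbp4 (17472) had the largest called fall of the family, with 27.8, 31.6, 22.2 and 54.6 CPM in KO hearts and 173, 174, 124 and 107 CPM in WT hearts, a log2 change of -2.09 ± 0.29 (SE) and an edgeR adjusted p of 0.00525. Gbp9 had the smallest, -0.91 ± 0.14 (SE) (edgeR adjusted p = 0.00525), with 66.3, 61, 45.1 and 68.3 CPM in KO hearts and 136, 109, 117 and 91.2 CPM in WT hearts. The hearts did not overlap in either gene. Calls of Gbp2, Gbp3, Gbp5 and Gbp7 held whichever aged heart was left out and in all 12 other settings, as did those of Armh4 and Gvin1.

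**Figure D2:**
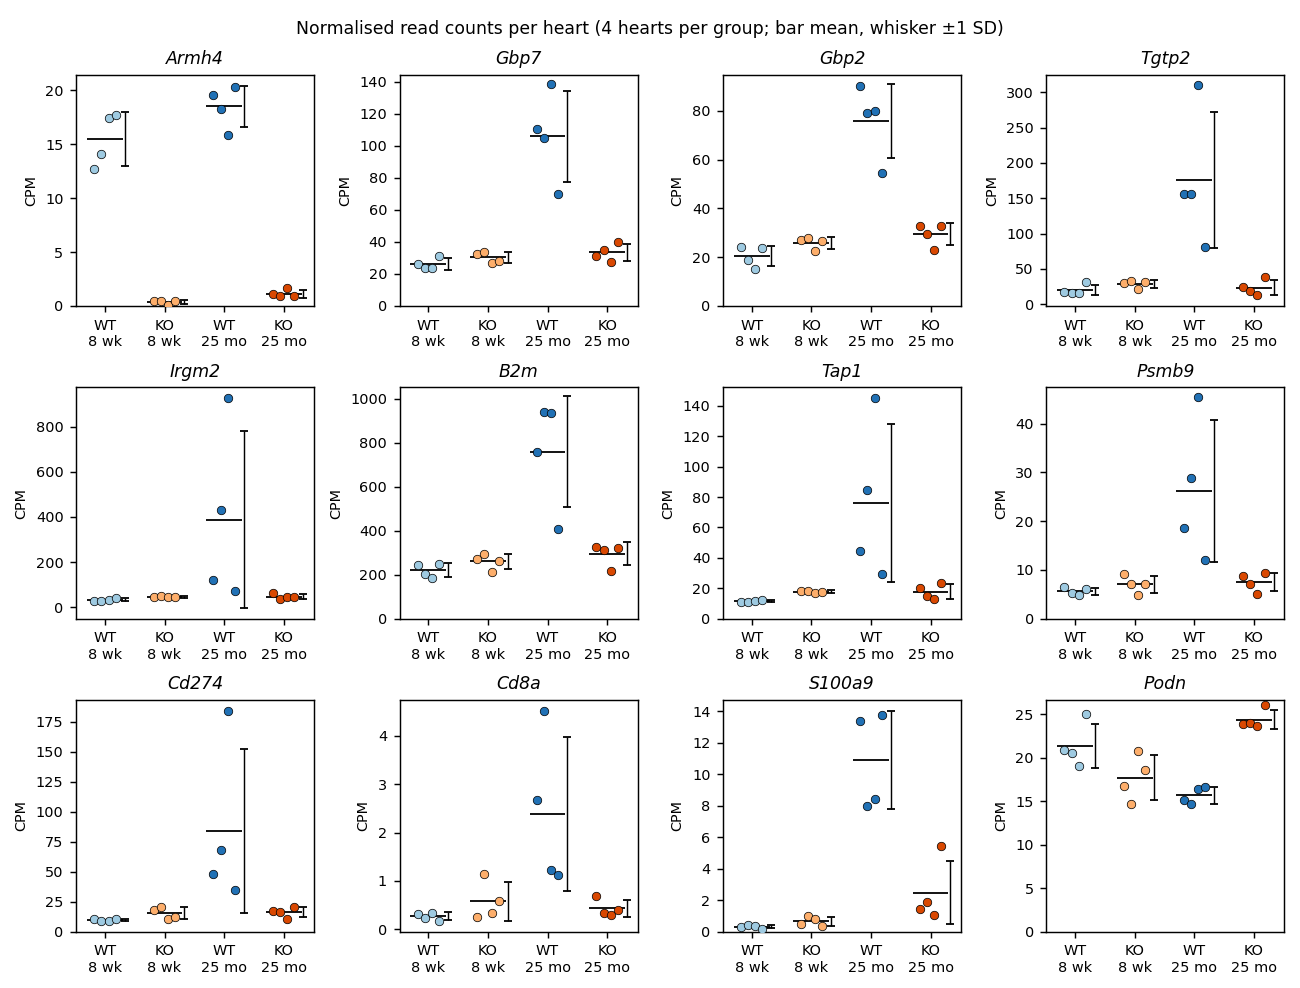
Level of 12 genes in CPM (vertical axes) in each of 16 hearts, by genotype and age (horizontal axes); points are hearts, bars the mean and whiskers 1 SD over 4 hearts. Gbp7, Gbp2 and S100a9 are high in all 4 aged WT hearts, while Irgm2, Tap1, Psmb9 and Cd274 are spread out, with WT_Aged_5 highest.

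Gbp6 and Gbp10 had larger differences but did not pass. Gbp6 stood at 132, 78.7, 76.4 and 78.8 CPM in KO hearts and 231, 561, 1445 and 140.3 CPM in WT hearts, and its log2 difference was -2.70 ± 0.58 (SE) (edgeR adjusted p = 0.0566). The hearts did not overlap, but WT_Aged_5 stood far above the other WT hearts and WT_Aged_12 close to KO_Aged_114. Both genes had fractional counts in all 16 libraries, so reads may be shared with their near copies.

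The immunity-related GTPases and the very large inducible GTPases (Gvin), which also act against intracellular pathogens, fell in 6 of 14 tested members, with all 14 below 0 and a median of -2.83. A further called Gvin gene belongs to no list and is not in this count (log2 change -1.58 ± 0.22 (SE), edgeR adjusted p = 0.00521). Gvin1 (74558) stood at 58.1, 78.2, 56.8 and 85.1 CPM in KO hearts and 211, 194, 146 and 150.4 CPM in WT hearts, with a log2 change of -1.33 ± 0.14 (SE) (edgeR adjusted p = 4.82e-05). Ifi47 (15953) stood at 8.72, 5.3, 6.24 and 7.6 CPM in KO hearts and 32.3, 22.6, 25.7 and 14.5 CPM in WT hearts, a log2 change of -1.77 ± 0.24 (SE) (edgeR adjusted p = 0.00217). For both genes the WT hearts were all higher than the KO hearts and within a factor of 3 of each other. Tgtp2 (100039796) stood at 23.9, 18, 12.8 and 38.2 CPM in KO hearts and 156, 156, 310.4 and 80.8 CPM in WT hearts, a log2 change of -2.92 ± 0.43 (SE) (edgeR adjusted p = 0.00734). It and Tgtp1 (-2.49 ± 0.39 (SE)) are near-identical and had fractional counts in every library, so the split between them is uncertain. Gvin1 also had fractional counts in all 16 libraries, so its reads may be shared with other genes.

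Other members of this family differed mainly through WT_Aged_4 and WT_Aged_5. Irgm2 (54396) stood at 60.6, 37.5, 42.6 and 43.7 CPM in KO hearts and 121.6, 430.5, 929 and 71.8 CPM in WT hearts, and its fall of -3.07 ± 0.63 (SE) only just passed (edgeR adjusted p = 0.0459). Igtp (16145) stood at 50.5, 21.7, 29.4 and 28.6 CPM in KO hearts and 105, 423, 1562 and 41.3 CPM in WT hearts, a log2 difference of -4.03 ± 0.90 (SE) that did not pass (edgeR adjusted p = 0.0656). Iigp1 stood at 156, 117, 105 and 108 CPM in KO hearts and 343, 726, 2169.7 and 171 CPM in WT hearts, a difference of -2.81 ± 0.61 (SE) (edgeR adjusted p = 0.0565). In each of these genes WT_Aged_5 was highest and WT_Aged_12 lay near the KO hearts. Gm4841, another family member, reached 16699 counts in WT_Aged_5 and 29 in WT_Aged_12, against 16 to 283 in KO hearts. Without WT_Aged_5 the median of the family was -1.75 in place of -2.83.

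WT_Aged_12 was also low among the WT hearts in most of the lower set, while the highest WT heart varied. WT_Aged_12 was the lowest WT heart in 73 of the 95 genes, against 21.4% of all genes tested. WT_Aged_5 was the highest in 39, WT_Aged_1 in 33 and WT_Aged_4 in 18. Over all genes tested their shares were 26.16%, 34.02% and 22.31% in the same order. The count of WT_Aged_5 was thus above its share of all genes. That of WT_Aged_1 was close to its share, and that of WT_Aged_4 was below its share. In 19 of the 95 lower genes the highest WT heart was over 3 times the lowest. WT_Aged_1 lay farthest out on the first principal component of the aged hearts, at 35.3 (30.2% of the variance).

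**Figure D3:**
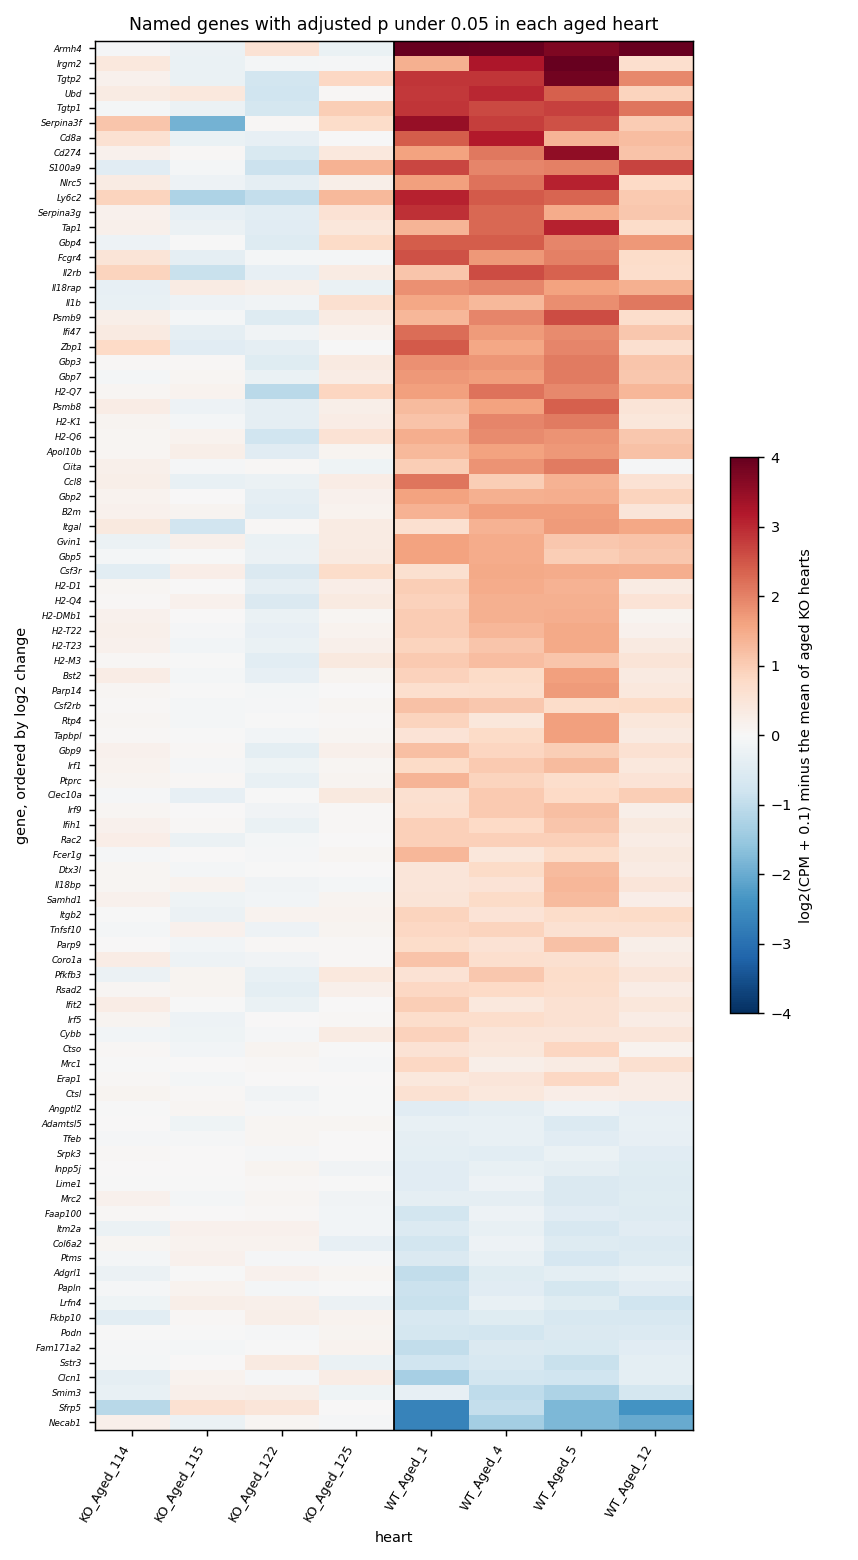
The 93 called genes named in the text (rows, ordered by log2 change) in each aged heart (columns); colour is log2 of CPM + 0.1 minus the mean of the 4 KO hearts, red above and blue below it. The KO columns are mostly pale, and WT_Aged_12 is the lowest WT heart in 57 of the 71 lower genes shown.

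MHC class I genes, which display peptides of the cell's own proteins to CD8 T cells, fell in 13 of 19 tested members, with all 19 below 0 and a median of -1.02. The count rested on single hearts, with 1 call without KO_Aged_115, 3 without KO_Aged_122, 4 without WT_Aged_4, 6 without KO_Aged_114 and 8 without WT_Aged_5, while the median stayed between -1.19 and -0.90 whichever aged heart was left out. The light chain B2m (12010) stood at 327, 315, 218 and 324 CPM in KO hearts and 758, 939, 937 and 406 CPM in WT hearts, a log2 change of -1.36 ± 0.22 (SE) (edgeR adjusted p = 0.00706). The heavy chain H2-K1 (14972) stood at 283, 248, 202 and 322 CPM in KO hearts and 576, 1012, 1095 and 359 CPM in WT hearts, a change of -1.53 ± 0.28 (SE) (edgeR adjusted p = 0.0231). In both genes WT_Aged_12 was closest to the KO hearts, without overlap. H2-D1, H2-T23, H2-M3, H2-Q4, H2-Q6, H2-Q7 and H2-T22 fell as well, and H2 genes that resemble each other may share reads.

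Among genes of the peptide supply machinery some passed and others did not, and differences between them were not tested. Tap1 (21354), a subunit of the peptide transporter, stood at 20.1, 14.7, 12.7 and 23.6 CPM in KO hearts and 44.8, 84.9, 145 and 29.1 CPM in WT hearts and fell by 2.10 ± 0.40 (SE) (edgeR adjusted p = 0.0299), while Tap2 differed by -0.59 ± 0.16 (SE) and did not pass (edgeR adjusted p = 0.101). Tapbpl and the trimming peptidase Erap1 fell, and tapasin (Tapbp) did not pass at -0.42 ± 0.14 (SE) (edgeR adjusted p = 0.195). Erap1 was small but even, with 56.6, 52.4, 55 and 55.6 CPM in KO hearts and 72.8, 76.9, 96.9 and 67.2 CPM in WT hearts and no overlap. Nlrc5 (434341), a transactivator of class I genes, stood at 13.2, 8.95, 8.15 and 12.1 CPM in KO hearts and 32.6, 46.8, 88 and 18.2 CPM in WT hearts and fell by 2.13 ± 0.40 (SE) (edgeR adjusted p = 0.0274).

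Of 7 immunoproteasome and FAT10 genes 3 fell, with all 7 below 0 and a median of -1.09. Without KO_Aged_115, KO_Aged_122 or WT_Aged_4 the count was 1, without WT_Aged_1 it was 2 and without WT_Aged_12 it was 6. Without WT_Aged_5 the median was -0.62. Psmb9 (16912), an interferon-induced catalytic subunit, stood at 8.72, 7.04, 5.18 and 9.3 CPM in KO hearts and 18.6, 28.8, 45.4 and 12 CPM in WT hearts, a change of -1.80 ± 0.33 (SE) (edgeR adjusted p = 0.0214). Psmb8 fell by 1.58 ± 0.30 (SE), and Psmb10, the remaining catalytic subunit, differed by -1.09 ± 0.30 (SE) without passing (edgeR adjusted p = 0.133). Ubd, which encodes the ubiquitin-like FAT10, had 3 to 8 counts in KO hearts and 48, 57, 38 and 12 in WT hearts, and it entered the test only through the latter. Constitutive proteasome subunits, the housekeeping counterpart, had 0 of 33 called and a median of -0.09.

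MHC class II genes, which display peptides taken up from outside, had 9 of 9 members below 0 and a median of -1.12, but 2 passed: H2-DMb1, -1.09 ± 0.21 (SE) (edgeR adjusted p = 0.0161), and the class II transactivator Ciita, -1.43 ± 0.32 (SE) (edgeR adjusted p = 0.0416). In both genes WT_Aged_12 lay within the KO hearts. H2-Aa stood at 92.8, 79.1, 58.6 and 76.6 CPM in KO hearts and 162, 238, 288 and 63.7 CPM in WT hearts, a difference of -1.29 ± 0.33 (SE) that did not pass (edgeR adjusted p = 0.107). There WT_Aged_12 lay below 3 of the 4 KO hearts.

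Among 50 type I interferon effectors 8 fell, with all 50 below 0 and a median of -0.64. Without KO_Aged_115 the count was 0, without KO_Aged_122 it was 1, without KO_Aged_114 or WT_Aged_1 it was 5, and without WT_Aged_12 it was 21, with medians between -0.73 and -0.45 whichever aged heart was left out. They were the ubiquitin ligase pair Parp9 and Dtx3l, Parp14, Ifit2, Rtp4, the dNTPase Samhd1, the antiviral enzyme Rsad2 and the virus tether Bst2, with log2 changes of -0.73, -0.76, -0.97, -0.64, -0.95, -0.74, -0.66 and -0.98. Rsad2 stood at 24.1, 25, 17.7 and 26.4 CPM in KO hearts and 40.8, 39.7, 38 and 28.4 CPM in WT hearts, with no overlap. Of 17 OAS and RNA sensor genes 2 fell, the sensor Ifih1 (-0.82 ± 0.13 (SE)) and Zbp1 (-1.74 ± 0.32 (SE)). Ifit1, a classical target, had at most 193 counts in a KO heart and 312, 218, 801 and 147 in WT hearts, so the groups overlap.

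Of 21 interferon receptors, STATs and IRFs 3 fell. Irf1 (16362), a factor that drives antigen presentation genes, stood at 37.5, 33, 30.5 and 36.1 CPM in KO hearts and 58.7, 70, 82 and 45.5 CPM in WT hearts, a change of -0.90 ± 0.14 (SE) (edgeR adjusted p = 0.00438). Irf9 fell by 0.83 ± 0.14 (SE) and Irf5 changed by -0.59 ± 0.13 (SE). None of the 3 overlapped between genotypes. Ifng itself had 2 counts in all KO hearts and 3 in all WT hearts, too few to test. IL-6 family receptors and STAT3 signalling (0 of 22 called, median -0.02) and mTOR complexes and AKT (0 of 30, median 0.04) stood near the median of all genes.

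Some leucocyte genes fell as well. Most of those in the next sentences belong to no list and were picked from the called genes. Ptprc, which encodes the pan-leucocyte marker CD45, stood at 17.5, 16.6, 13.2 and 17.3 CPM in KO hearts and 41.2, 29.6, 26.4 and 23.4 CPM in WT hearts, a change of -0.90 ± 0.16 (SE) (edgeR adjusted p = 0.0074). The integrin chain Itgb2 stood at 9.71, 8.45, 10.9 and 10.8 CPM in KO hearts and 18.3, 14.7, 16.6 and 16.8 CPM in WT hearts and fell by 0.73 ± 0.12 (SE) (edgeR adjusted p = 0.00532). Its WT hearts were even, between 14.7 and 18.3. Itgal, Coro1a, Rac2, the oxidase subunit Cybb and the receptor chain Csf2rb fell too.

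Of 15 tested monocyte and neutrophil genes 5 fell, with all 15 below 0 and a median of -1.31. S100a9 (20202), an abundant neutrophil protein, stood at 1.45, 1.9, 1.07 and 5.42 CPM in KO hearts and 13.4, 8.0, 8.4 and 13.8 CPM in WT hearts, a change of -2.15 ± 0.36 (SE) (edgeR adjusted p = 0.00671). Its partner S100a8 differed by -1.99 ± 0.51 (SE) and did not pass (edgeR adjusted p = 0.0927). Itgal, Csf3r and Ly6c2 were among the others that fell. The summed level of the list was 42.4 to 60.3 CPM in KO hearts and 76.0 to 171 CPM in WT hearts. Of the 15 tested, 5 entered the test only through the aged WT hearts.

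Macrophage genes fell in 2 of 35 cases, with a median of -0.43 and 30 below 0. The mannose receptor Mrc1 stood at 56.4, 57.1, 59 and 54.7 CPM in KO hearts and 101, 66.6, 70.7 and 88.1 CPM in WT hearts, a small change of -0.52 ± 0.11 (SE) (edgeR adjusted p = 0.0324), and Clec10a fell by 0.86 ± 0.18 (SE). WT_Aged_1 was the highest heart for Mrc1, and the KO hearts lay within 54.7 to 59.0. Summed macrophage levels were 758 to 834 CPM in KO hearts and 955 to 1306 CPM in WT hearts. Fc gamma receptors, which bind antibody, had 2 of 6 called: Fcgr4, -1.92 ± 0.31 (SE) (edgeR adjusted p = 0.00525), and the shared chain Fcer1g, -0.78 ± 0.16 (SE) (edgeR adjusted p = 0.0175).

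T and NK cell genes had 12 of 35 measured members tested, 2 of them lower, and 4 of the 12 entered only through the aged WT hearts. Cd8a had 9, 4, 4 and 5 counts in KO hearts and 33, 57, 16 and 14 in WT hearts, a log2 change of -2.43 ± 0.48 (SE) (edgeR adjusted p = 0.0169). Cd8b1 was too low to test, with 13 counts in all KO hearts and 81 in all WT hearts, while Cd4 had 65 and 63. Cd8a entered the test only through the aged WT hearts, and its call held in 5 of the 8 fits that left out 1 aged heart. The difference between Cd8a and Cd4 was not tested. Il2rb, a cytokine receptor chain of these cells, fell by 1.86 ± 0.42 (SE) (edgeR adjusted p = 0.0369), with overlap. B and plasma cell genes had 0 of 5 called and a median of -0.12. Dendritic and mast cell genes had a median of 0.23, with 6 of 11 above 0 and 1 lower, Bst2.

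Cd274 (60533), the gene of the checkpoint ligand PD-L1, stood at 17.6, 16.2, 10.3 and 20.9 CPM in KO hearts and 48.3, 68.4, 184 and 34.4 CPM in WT hearts, a change of -2.37 ± 0.46 (SE) (edgeR adjusted p = 0.0348). The death ligand gene Tnfsf10 was more even, at 30.1, 36.4, 27.5 and 34.8 CPM in KO hearts and 56.7, 59.4, 49.3 and 48.4 CPM in WT hearts, a change of -0.73 ± 0.14 (SE) (edgeR adjusted p = 0.0122). Neither overlapped. Among 25 cytokine and inflammasome genes Il1b, Il18bp and Il18rap fell, and Il1b and Il18rap entered the test only through the aged WT hearts. Among 28 chemokine genes Ccl8 fell (-1.39 ± 0.28 (SE)), and Cxcl9, an interferon-gamma target, differed by -1.26 ± 0.29 (SE) and missed the threshold (edgeR adjusted p = 0.0538). Apol10b, Serpina3g and Serpina3f fell among 14 serpin and ApoL genes, of which 6, Serpina3f included, entered only through the aged WT hearts. Apol10b stood at 8.64, 9.61, 5.94 and 8.81 CPM in KO hearts and 20.2, 25.1, 27 and 18.4 CPM in WT hearts, a change of -1.46 ± 0.23 (SE) (edgeR adjusted p = 0.00532), with no overlap.

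The leucocyte and interferon genes named above were lower in the same KO hearts, so a smaller number of leucocytes and lower interferon-induced expression cannot be told apart here. Whether leucocyte content accounts for the interferon genes was not tested. Endothelial genes (0 of 32 called, median -0.04), fibroblast genes (0 of 27, median 0.11) and smooth muscle and pericyte genes (0 of 20, median 0.04) stood near the median of all genes. Erythroid genes had 0 of 11 called and a median of -0.40, with summed levels of 1119 to 2084 CPM in KO hearts and 1265 to 2451 CPM in WT hearts. With an erythroid score in the fit 29 genes passed, and with an atrial score 8. Medians in these 2 fits were -1.62 and -1.60 for guanylate-binding proteins, -2.76 and -2.73 for immunity-related GTPases, -1.03 and -0.93 for class I genes, and -0.44 and -0.60 for type I effectors. Calls were 6 and 4 for guanylate-binding proteins and 4 and 1 for immunity-related GTPases. They were 2 and 0 for class I genes and 0 in both fits for type I effectors. Centred on the aged hearts, the atrial score was -0.18 to 0.89 in KO hearts and -0.44 to -0.37 in WT hearts. Atrial content and genotype therefore cannot be told apart well in that fit. Without KO_Aged_114 and KO_Aged_115, where atrial genes were highest, 14 passed, and the medians of the guanylate-binding proteins (-1.72) and class I genes (-1.01) stayed close to the full values. KO_Aged_122, with an atrial score of 0.18 and 41 counts of Myl7, remained in that fit, so it does not set atrial content aside. Guanylate-binding proteins kept 5 calls there and 5 in the aged libraries alone, while class I, immunoproteasome and type I effector genes had 0 in both.

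**Figure D4:**
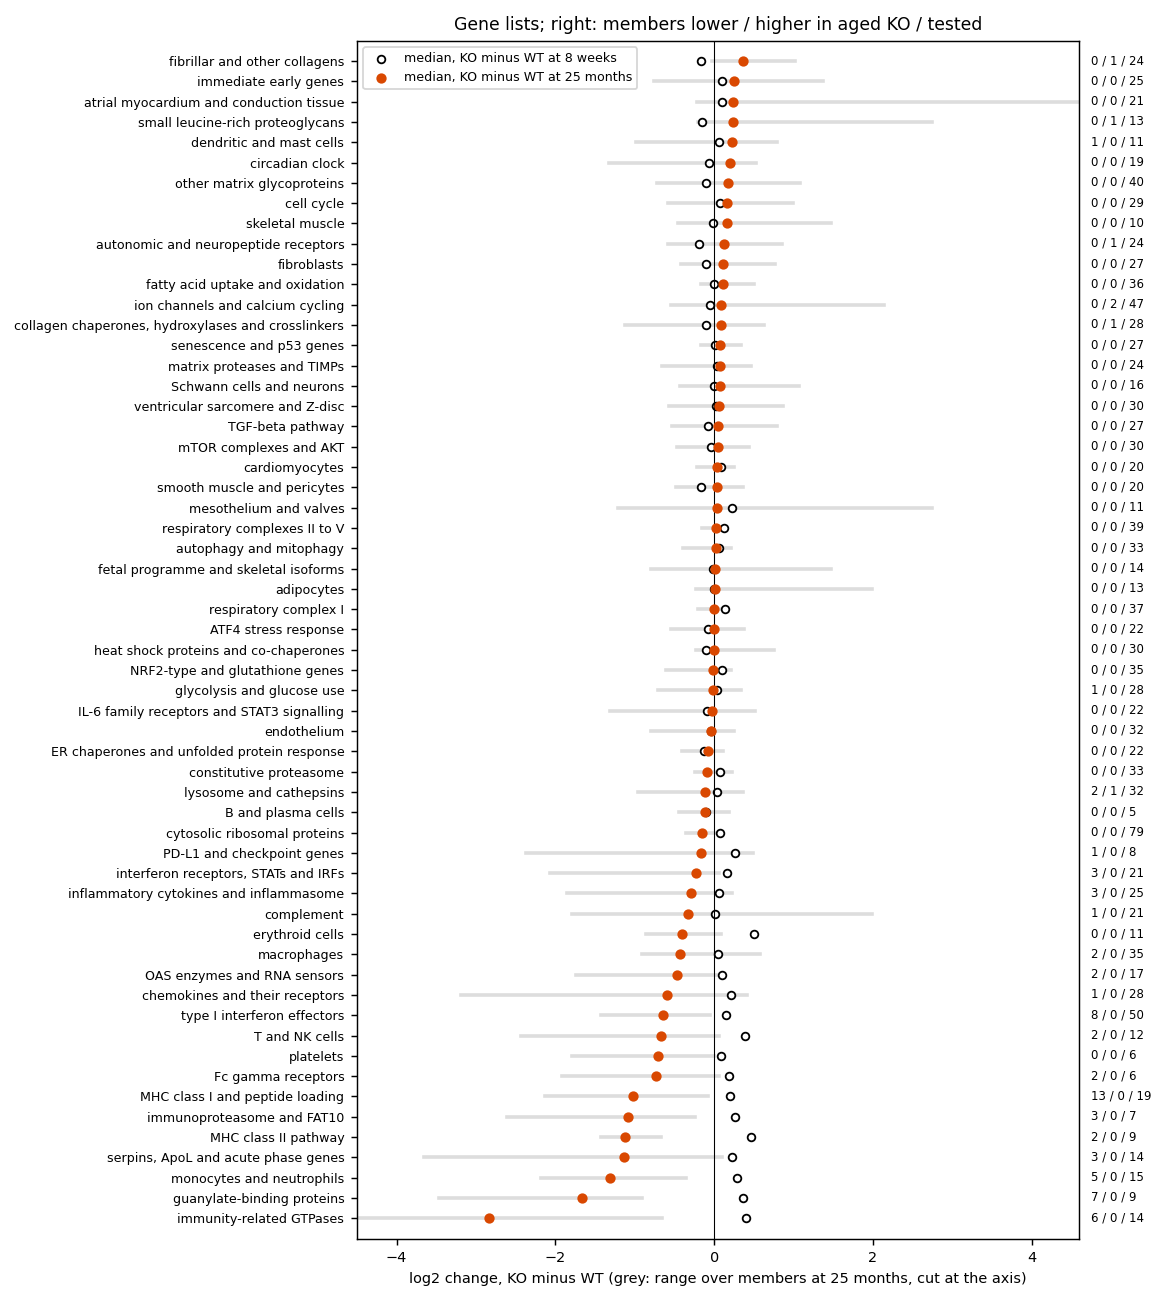
Median log2 change, KO minus WT, of 58 gene lists at 25 months (filled points) and 8 weeks (open points); grey bars span the members at 25 months and the numbers give members lower, members higher and members tested. Immunity-related GTPases (-2.83) and guanylate-binding proteins (-1.67) lie lowest at 25 months, with medians of 0.40 and 0.36 at 8 weeks, and collagens are highest at 0.36.

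The 22 higher genes fell into no single list. Podn (242608), a small leucine-rich proteoglycan of the matrix, stood at 23.9, 24, 23.6 and 26 CPM in KO hearts and 15.1, 14.7, 16.3 and 16.6 CPM in WT hearts, a log2 change of 0.64 ± 0.10 (SE) (edgeR adjusted p = 0.00525). The collagen chaperone Fkbp10 stood at 23.9, 32.6, 37.5 and 35.3 CPM in KO hearts and 20.3, 22.5, 20.2 and 20.2 CPM in WT hearts, a change of 0.63 ± 0.12 (SE) (edgeR adjusted p = 0.0122), and Col6a2, a chain of collagen VI, rose by 0.49 ± 0.11 (SE) with overlap (edgeR adjusted p = 0.0368). Every KO heart was above every WT heart in the first 2. Of 24 collagen chains 23 stood above 0, with a median of 0.36, and Col6a2 alone passed. Col6a3 (0.64 ± 0.16 (SE)) and Col1a1 (0.70 ± 0.19 (SE)) did not (edgeR adjusted p = 0.0659 and 0.119). On the log2 scale, centred on the aged hearts, the 24 chains averaged 0.34, 0.27, 0.44 and -0.25 in KO hearts. The WT hearts averaged -0.04, -0.09, -0.32 and -0.35, so KO_Aged_125 lay within the range of the WT hearts. Other matrix or secreted proteins that rose were Papln, Adamtsl5, Angptl2 and the collagen receptor Mrc2, with log2 changes of 0.61, 0.36, 0.34 and 0.45.

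Necab1 (69352), a calcium-binding protein, had the largest rise, 2.13 ± 0.35 (SE) (edgeR adjusted p = 0.00525), at a low level of 1.83, 1.33, 1.68 and 1.54 CPM in KO hearts and 0.162, 0.555, 0.382 and 0.32 CPM in WT hearts. Its counts were fractional in all 16 libraries. Sfrp5, a secreted antagonist of Wnt ligands, rose by 2.09 ± 0.41 (SE) with overlap (edgeR adjusted p = 0.0145), at 0.917, 3.23, 2.97 and 2.1 CPM in KO hearts and 0.243, 1.03, 0.535 and 0.32 CPM in WT hearts. Calls of Podn and Necab1 were the only ones in this direction that held whichever heart was left out. Clcn1, a chloride channel of muscle, rose by 0.80 ± 0.17 (SE) (edgeR adjusted p = 0.0324). Tfeb (21425), a master regulator of lysosomal genes, stood at 28.1, 28.4, 30.7 and 29.4 CPM in KO hearts and 22.7, 23.5, 21.2 and 23.3 CPM in WT hearts and rose by 0.36 ± 0.08 (SE) (edgeR adjusted p = 0.0334). Lysosomal genes as a list had 2 of 32 lower, Ctso and Ctsl, 1 higher, Tfeb itself, and a median of -0.11. Srpk3, Ptms, Lrfn4, Lime1, Itm2a, Faap100, Adgrl1, Smim3, Inpp5j and Fam171a2 made up most of the rest, with rises of 0.38 to 0.81.

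Metabolic, contractile and senescence lists stood near the median of all genes. Respiratory complex I had 0 of 37 genes called and a median of 0.00, fatty acid use 0 of 36 (0.11), sarcomere and Z-disc 0 of 30 (0.06), and senescence and p53 genes 0 of 27 (0.07). Of 28 glycolysis genes 1 fell, Pfkfb3, which controls glycolytic flux, with a log2 change of -0.71 ± 0.15 (SE) (edgeR adjusted p = 0.0299). Ribosomal protein genes stood below 0 in 78 of 79 cases, with a median of -0.16 and 0 called.

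At 8 weeks the same genotype comparison called 36 genes (0.269%), 7 of them higher (0.0523%) and 29 lower (0.217%), and no interferon or leucocyte list named here had a called member. Of the 95 genes that were lower at 25 months, 83 stood above 0 at 8 weeks. Armh4 and Sstr3 were the 2 genes called at both ages, and Sstr3, a somatostatin receptor, moved the other way, 0.69 ± 0.16 (SE) at 25 months and -0.91 at 8 weeks. In aged hearts Sstr3 stood at 7.57, 8.12, 10.3 and 6.71 CPM in KO hearts and 4.62, 5.15, 4.28 and 6.16 CPM in WT hearts, with no overlap. The interaction, the KO difference at 25 months minus that at 8 weeks, was tested in the same fit and called 62 genes (0.464%), 45 of them lower at 25 months (0.336%) and 17 higher (0.127%). It called 46 of the 117 genes, with 6 of the guanylate-binding proteins, 4 of the GTPase list and 6 class I genes among them. The interaction contains the aged difference by which the 117 were chosen, so this count is not independent of that choice. The other 71 were not shown to differ between ages.

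**Figure D5:**
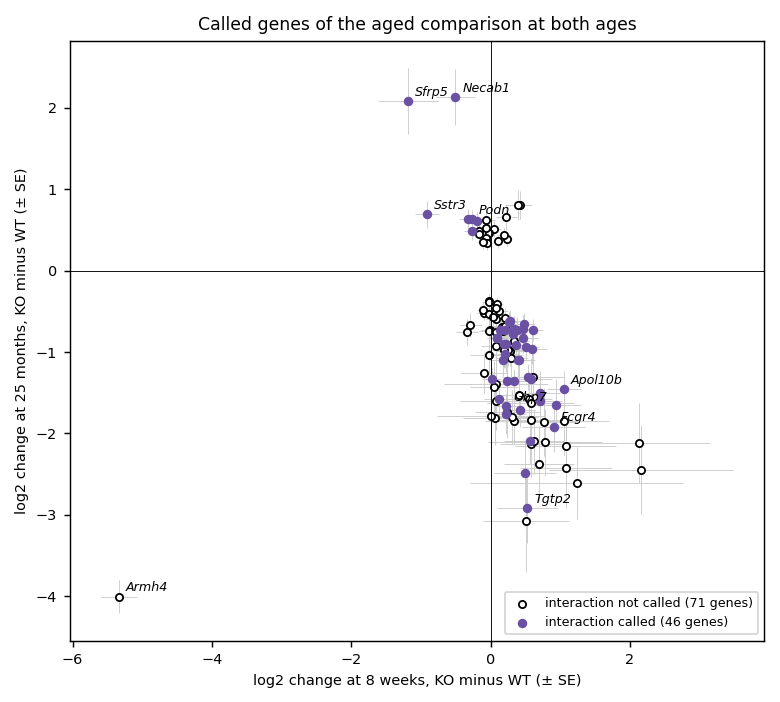
Log2 change of KO minus WT at 25 months (vertical axis) against 8 weeks (horizontal axis) for the 117 called genes, each with its SE; filled points are the 46 genes with a called interaction. Most lower genes lie to the right of 0 at 8 weeks, and Sstr3 lies on opposite sides of 0.

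Mean levels in CPM are given for a few of these genes. Gbp7 averaged 26.1 ± 3.62 in young WT, 30.3 ± 3.23 in young KO, 106 ± 28.4 in aged WT and 33.4 ± 5.43 in aged KO hearts (mean ± SD, n = 4). For Gbp7 the aged KO hearts thus lay close to both young groups and the aged WT hearts above them. B2m averaged 222 ± 31, 261 ± 34.5, 760.2 ± 251 and 296 ± 52.1 in the same order. Not all lower genes were like this. Ptprc averaged 8.5 ± 1.38, 9.92 ± 1.58, 30.2 ± 7.78 and 16.2 ± 2.02, and Mrc1 30.9 ± 3.31, 32.4 ± 3.98, 81.6 ± 16 and 56.8 ± 1.8. For Ptprc and Mrc1 the aged KO hearts lay above both young groups and below the aged WT hearts. Podn averaged 21.3 ± 2.56, 17.7 ± 2.59, 15.7 ± 0.958 and 24.4 ± 1.12, with aged WT hearts lowest.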

How the data were processed

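RNA was sequenced in 16 mouse hearts, and each was grouped by the genotype and age in its labels. The authors' deposited table of expected counts holds fractions as well as whole numbers. Their deposited FPKM table is scaled for gene length and depth. Per the submitters' processing notes, HISAT, Bowtie2 and build GRCm39 were used, with no versions, and no source names the program that counted reads. Counts were rounded and tested with edgeR 4.0.16 in R 4.3.3 (quasi-likelihood F test, with robust weighting, filterByExpr, TMM, 1 fit of 16 libraries and 4 groups, 12 residual degrees of freedom), with Benjamini-Hochberg adjustment over 13373 genes. Genes called have an adjusted p under 0.05. SE is the log2 change divided by the root of F. FPKM values (log2 of FPKM + 1, genes with a mean FPKM of at least 0.5, limma 3.58.1) and DESeq2 1.42.0 served as alternatives. In a simulation with 50 genes at each size, the fit recovered 76% of genes lowered by 1 and 90% of those raised by 1 on the log2 scale. Of the simulated calls 4.23% were false. The simulation gave all groups the same spread for a gene and drew genes independently. It therefore leaves out the wider spread of the aged WT hearts and does not give the share of false calls in the real data. Libraries of a group differed by more than sampling noise (chi-square per degree of freedom of at least 3.67). Pairs of aged WT hearts gave 10.8 to 41.3 and pairs of aged KO hearts 6.68 to 9.34. Named genes are called genes by adjusted p or size, the called members and next members of each list, and label checks. The members and the 58 lists were chosen with earlier results of these data known. Promoter windows are from RefSeq, GRCm38.p6, and 85 of the 117 genes matched. Some results are not reported here.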

Additional observations from a re-analysis of the deposited data

Results flagged for a closer look

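The KO difference at 25 months differed from that at 8 weeks, by the interaction term of the same edgeR fit (adjusted p under 0.05), for 43 of the genes named here, with 34 below 0 and 9 above 0. Most named genes were chosen by the difference at 25 months, which the interaction contains, so the count is not independent of that choice. Among interferon-induced GTPases the log2 interactions were Gbp7 -1.88, Gbp2 -1.70, Gbp5 -1.85, Gbp3 -2.13, Gbp4 -2.66, Gbp9 -1.28, Gvin1 -1.35, Ifi47 -1.99, Tgtp2 -3.44 and Tgtp1 -2.98. Among antigen presentation genes they were B2m -1.60, H2-D1 -1.28, H2-T23 -1.22, H2-DMb1 -1.48, H2-Q4 -1.49, H2-Q6 -2.22 and H2-Q7 -2.59. Among other genes that were lower at 25 months they were Ifih1 -0.91, Parp9 -0.93, Ifit2 -0.90, Rsad2 -1.14, Irf1 -1.09, Irf9 -0.93, Tnfsf10 -1.34, Fcgr4 -2.82, Fcer1g -1.10, Apol10b -2.51, Ptprc -1.12, Itgb2 -0.87, Itgal -1.91, Coro1a -1.18, Rac2 -1.29, Csf2rb -1.56 and Pfkfb3 -1.04. Those above 0 were Necab1 2.64, Podn 0.90, Papln 0.80, Fkbp10 0.96, Sfrp5 3.27, Col6a2 0.76, Sstr3 1.61, Gpd1 1.08 and Zbed6 1.64. 

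In 17 of 224 groups of 4 hearts 1 heart stood far from the other 3, where chance gives about 1 in 20 groups. In CPM, WT_Aged_5 was the far heart for Gbp10 at 306 in WT_Aged_5, Parp14 at 152 in WT_Aged_5, Il18bp at 23.7 in WT_Aged_5 and Adamtsl5 at 68.8 in WT_Aged_5. The other far values were Gbp6 at 132 in KO_Aged_114, Gbp10 at 17.1 in KO_Aged_114, B2m at 218 in KO_Aged_122, Il1b at 1.13 in KO_Aged_125, Csf3r at 4.62 in WT_Aged_1, Rac2 at 5.76 in WT_Aged_12, Cybb at 38.9 in WT_Aged_1, Podn at 26 in KO_Aged_125, Fkbp10 at 22.5 in WT_Aged_4, Col6a2 at 65.1 in KO_Aged_125, Lime1 at 21.8 in KO_Aged_122, Col6a3 at 21 in WT_Aged_12 and Gm4841 at 21.6 in KO_Aged_114. None of these patterns was traced to a cause, and none was tested for one.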

How the results depend on the processing

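Counts of called genes depended on the fit. In aged hearts 117 passed, against 261 with DESeq2, 65 with limma on log2 of FPKM + 0.1, 29 with an erythroid score, 8 with an atrial score, 17 with the 8 aged libraries alone and, chosen after seeing the data, 14 without KO_Aged_114 and KO_Aged_115; leaving out 1 heart gave 31 to 251. At 8 weeks 36 passed, against 149 with DESeq2, 23 and 7 with limma on log2 of FPKM + 1 with and without a filter, 7 with an atrial score and 135 with the young libraries alone; leaving out 1 heart gave 4 to 21. The interaction called 62, against 217 with DESeq2, 39 with limma and no filter, 7 with an erythroid score and 26 with an atrial score; leaving out 1 heart gave 25 to 171. Without robust weighting, added after seeing the data, the counts were 149, 43 and 77. No called gene of the aged comparison changed direction in any setting, and 28 of the 117 calls held whichever aged heart was left out. All settings reuse hearts by which the genes were chosen, so the unchanged directions are no separate support. Causes were not tested. No paired analysis was possible because the groups share no animal number. Limits are the 4 hearts a group and low counts, as in Cd8a and Ubd. A further limit is that the main fit estimates the spread of a gene over all 16 libraries together. The aged WT hearts differed from each other more than the aged KO hearts did, so the SE and adjusted p rest partly on less variable groups.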

Other observations

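The genes below were picked after their values were seen, because their aged WT hearts followed the order of the immunity-related GTPases. Stxbp4 stood at 20.6, 17.3, 19.3 and 17.5 CPM in KO hearts and 20.3, 86.8, 279.7 and 18.6 CPM in WT hearts, Hdac8 at 6.73, 7.04, 5.25 and 6.71 CPM in KO hearts and 8.6, 25, 86.9 and 6.8 CPM in WT hearts, and Cyp3a13 at 10.4, 12.6, 6.32 and 8.81 CPM in KO hearts and 13.7, 76.4, 249 and 12.7 CPM in WT hearts. In each of them WT_Aged_5 was highest and WT_Aged_4 next, and the other WT hearts lay near the KO hearts. The log2 differences were -2.44 ± 0.70 (SE), -2.31 ± 0.66 (SE) and -3.21 ± 0.81 (SE), and none passed (edgeR adjusted p = 0.16, 0.156 and 0.105). All 3 had fractional counts in all 16 libraries. The cause was not tested.

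The interaction also called 16 genes that were not called in aged hearts. Among them Gpd1, an enzyme of the glycerol phosphate shuttle, differed by 0.21 ± 0.11 (SE) at 25 months and -0.87 at 8 weeks, and Zbed6, a transcriptional repressor, by 0.49 ± 0.19 (SE) and -1.15.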
